A study of Mus musculus with 4 samples.

Results

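Lipid-associated macrophages are macrophages that gather where lipid accumulates, in obese fat tissue, fatty liver and arterial plaques. They are known for the lipid-sensing receptor TREM2, which signals through its adaptor TYROBP, and for a set of genes for lipid uptake, lysosomal breakdown and secreted matrix proteins. In fatty liver such cells stand beside the resident Kupffer cells and are known to arise largely from blood monocytes. Expression of 10 genes of this program was described in the liver of obese mice fed an oxidized cholesterol, 7-ketocholesterol (7KC). The genes were taken by symbol, and all 10 were found among the 24346 gene symbols listed. Of these genes, Trem2, Gpnmb, Cd9 and Itgax encode proteins of the cell surface, Spp1, Mmp12 and Lgals3 encode secreted proteins, and Cd68, Mpeg1 and Lyz2 encode proteins of phagosomes, lysosomes and granules. Several are not particular to lipid-associated macrophages: Spp1, Cd9 and Lgals3 are also known in bile duct cells and other cells, and Itgax in dendritic cells. Cd68, Mpeg1 and Lyz2 are also known in macrophages of other kinds.

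The livers came from male ob/ob mice, whose obesity comes from the loss of leptin. The mice were 6 weeks old at the start and were fed for 4 weeks with 1 of 4 diets, all with 1% cholesterol. CD was the regular chow diet with corn oil, and WD was a high fat diet with cocoa butter, more sucrose and slightly less casein. CD+7KC and WD+7KC were the same diets with 0.01% 7KC added. Fat content, fat source and sucrose thus differed together between CD and WD and cannot be told apart. Each group had 1 library, and the sources used here do not state whether it came from 1 mouse or from a pool, so that the differences below could not be checked against replicates and carry no p-value. Every group carried the ob/ob mutation and ate added cholesterol, so that neither a lean liver nor a diet without added cholesterol was compared.

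Values are FPKM as deposited, by definition the fragments per kilobase of transcript scaled to the mapped fragments of the library. Whether a further scaling between libraries was applied is not given in the sources used here. As deposited, the all-gene medians of log2 fold changes in the comparisons below lay from -0.001 to 0.01. Had such a scaling been applied, the fragment totals estimated next would be scaled totals and not the mapped fragments of each library. Steps between low FPKM values corresponded to 9440000 (WD) to 12140000 (WD+7KC) fragments per library, and read numbers below rest on these estimates. Counting intervals (95%, exact) cover the sampling of reads only and say nothing of how mice differ. Log2 fold changes are those of FPKM + 0.1, which understates the change of low genes, and a log2 fold change above 1 or below -1 was counted as a call. The intervals rest on read numbers without the 0.1, so that for low genes they belong to a ratio further from 0 than the printed value. For Itgax in WD+7KC relative to CD+7KC the value was 1.78, or 1.94 with no pseudocount. The FPKM values of WD+7KC summed to 602059, compared to 696062 to 715605 in the other libraries. Rescaling the libraries to equal sums therefore moved the all-gene median of log2 fold changes from 0.002 to 0.21 in WD+7KC relative to WD and from 0.003 to 0.20 in WD+7KC relative to CD+7KC. It moved the medians of both other comparisons by no more than 0.04. After this rescaling 11502 of the 15753 genes tested were higher in WD+7KC than in WD, compared to 7908 as deposited. Rescaled counts of higher genes given below for any list are to be read beside that share. No member changed the direction of a difference under this rescaling or under the other alternative settings. Of these, median-ratio scaling hardly changed the deposited values (980 in place of 978 genes above 1 in WD+7KC relative to WD), so that it was no separate check.

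The promoters of the members, which were chosen with earlier results of these data known, were searched for short motifs as a description. RefSeq promoter windows (GRCm38.p6, 250 bases before to 50 after each start) were found for all 10 members, in 12 windows. The letters TGANTCA, which take in the core bound by AP-1 family proteins (TGACTCA, or TGAGTCA on the other strand), were found in 5 of the 12 windows, those of Trem2, Gpnmb, Itgax, Mmp12 and Cd68, compared to 7.81% of all 32851 windows. The Trem2 match, TGAATCA, is not that core, which was found in 4 of the 12 windows (Gpnmb, Itgax, Mmp12 and Cd68) compared to 5.20% of all windows, a count made after the matches were seen. The matches are shown with 11 bases on each side, on the strand of the gene, with the matched letters in capitals.

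Trem2, chr17:48346381-48346409, + strand: ttctccctcctTGAATCAcagcgcctacc
Gpnmb, chr6:49036515-49036543, + strand: ccaggggcaagTGACTCAtgagcacgagt
Itgax, chr7:128129483-128129511, + strand: cccacctcctcTGAGTCAcgctgacaact
Mmp12, chr9:7347319-7347347, + strand: gacatcaacagTGAGTCAgatagaggatt
Cd68, distal, chr11:69666302-69666330, - strand: taagttccgtgTGAGTCAgctgcctcatt
Cd68, proximal, chr11:69666177-69666205, - strand: gctgaggtgtcTGAGTCAggtttggggtg

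Counted from the RefSeq start, the matched letters began at position -9 in Trem2, 9 in Gpnmb, -56 in Itgax, -149 and -24 in Cd68, and -44 from a start inside the annotated Mmp12 gene. TGANTCA reads the same on both strands in its fixed letters, and no match of the 4 motifs searched overlapped another. The letters GAGGAA, bound by the macrophage regulator PU.1, were found in 4 windows (Cd68, Mmp12, Spp1 and Trem2), compared to 28.3% of all windows on both strands. TCANNTGA, which covers the site of MITF and TFE proteins, was found in 3 windows (Lgals3, Mmp12 and Trem2), compared to 8.39%, and CACGTG in none of the 12, compared to 7.15%. These are matches of letters in a window and no measure of binding. The genes with and without TGANTCA overlapped in their differences: in WD+7KC relative to WD the log2 fold change ran from 0.55 (Trem2) to 1.49 (Mmp12) among genes with the letters and from 0.31 (Lgals3) to 0.96 (Mpeg1) among genes without them.

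**Figure D1:**
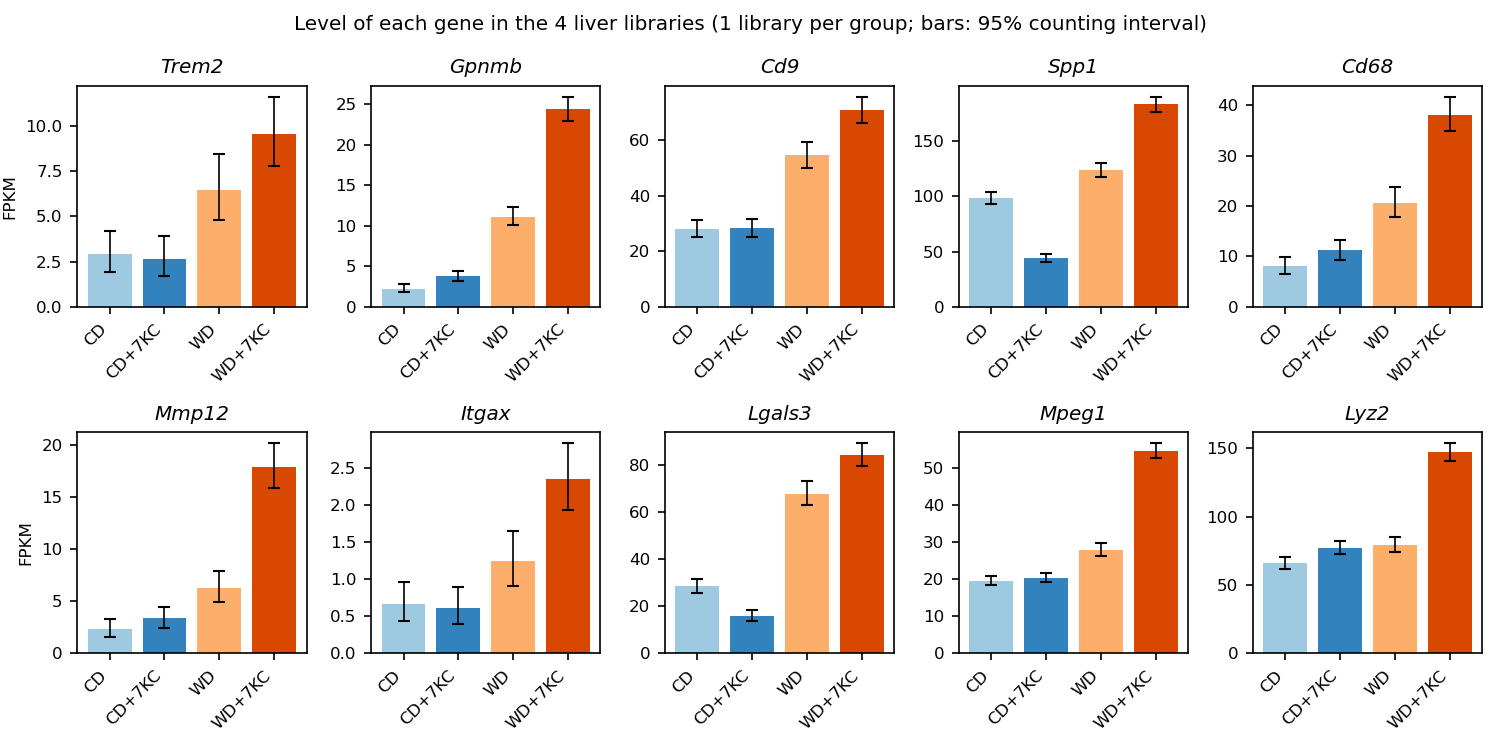
Level of each of the 10 genes in FPKM (y axis, from 0, scale set per gene) in the 4 libraries (x axis), 1 bar per library, with lines for the 95% counting interval. WD+7KC has the tallest bar for all 10 genes and WD the next. Spp1, Lgals3, Trem2 and Itgax have their shortest bar in CD+7KC, for Trem2 and Itgax within counting error of CD.

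All 10 genes were detected in all 4 libraries, and all 10 had their highest level in WD+7KC and their next highest in WD. This order was found for 13.7% of the 16408 genes above 0 FPKM in at least 1 library, and for the 10 members it was the same under 4 other scalings. WD exceeded the next library beyond counting error for 9 genes. The exception was Lyz2, with 79.7 FPKM in WD and 77.2 in CD+7KC (log2 difference 0.05, interval -0.09 to 0.18). The lower end of the order was less clear: the levels in CD and CD+7KC differed by less than counting error for Trem2, Cd9, Mmp12, Itgax and Mpeg1. In whole liver, a difference in the number of cells of a type and a difference in RNA per cell cannot be told apart, which holds for each result below.

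Among the surface proteins, Trem2, the lipid-sensing receptor, was at 2.92 and 2.64 FPKM under CD without and with 7KC, and at 6.46 and 9.52 FPKM under WD. These levels rested on 27, 25, 52 and 99 reads, so that Trem2 was among the least precisely measured members. Gpnmb, a glycoprotein of lysosomes and the cell surface in lipid-laden macrophages, was at 2.25 FPKM (CD), 3.77 (CD+7KC), 11.2 (WD) and 24.4 (WD+7KC). It spanned the widest range of the 10 genes, and each of the 4 levels differed from its neighbor in the order beyond counting error. Cd9, a tetraspanin membrane protein, was at 28.1 FPKM under CD, 28.4 under CD+7KC, 54.6 under WD and 70.9 under WD+7KC. The CD levels with and without 7KC could not be separated, while both WD levels were above them. Itgax, the integrin chain CD11c, was the lowest member at 0.664 and 0.615 FPKM under CD without and with 7KC, and at 1.24 and 2.36 FPKM under WD, on 28, 26, 45 and 110 reads.

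Among the secreted proteins, Spp1 (osteopontin, a matrix protein and cytokine) was at 98.7 FPKM (CD), 43.7 (CD+7KC), 124 (WD) and 183 (WD+7KC). It was the highest member in every library except CD+7KC, where Lyz2 was higher. Mmp12, the macrophage elastase, was at 2.37 FPKM under CD, 3.35 under CD+7KC, 6.29 under WD and 17.9 under WD+7KC. As a ratio, the step from WD to WD+7KC was the largest of the 10 genes. Lgals3 (galectin-3, a carbohydrate-binding protein) was at 28.6 and 16.1 FPKM under CD without and with 7KC, and at 67.9 and 84.3 FPKM under WD. As with Spp1, the level in CD+7KC was below that in CD beyond counting error.

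Among the proteins of phagosomes, lysosomes and granules, Cd68, a heavily glycosylated lysosomal membrane protein, was at 8.11 FPKM (CD), 11.2 (CD+7KC), 20.7 (WD) and 38.1 (WD+7KC). The 4 levels were each separated from the next beyond counting error. Mpeg1 (perforin-2, a pore-forming protein of phagosomes) was at 19.6 FPKM under CD, 20.4 under CD+7KC, 28.0 under WD and 54.6 under WD+7KC. Lyz2, the lysozyme of myeloid cells, was at 65.9 and 77.2 FPKM under CD without and with 7KC, and at 79.7 and 147 FPKM under WD. Both were set apart by the WD+7KC library more than by diet, with CD, CD+7KC and WD closer to each other than any of them to WD+7KC. The summed level of the 10 genes was 257 FPKM (CD), 207 (CD+7KC), 399.8 (WD) and 633 (WD+7KC).

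The first comparison asks how these genes differed with 7KC in the high fat diet. All 10 genes were higher in WD+7KC than in WD, compared to 50.2% of all genes tested, and all 10 counting intervals lay above 0. The matrix protease Mmp12 had the largest difference at 2.84-fold (ratio of FPKM without a pseudocount, as for the other folds), followed by Gpnmb at 2.19-fold, Mpeg1 at 1.95-fold, Itgax at 1.90-fold, Lyz2 at 1.85-fold and Cd68 at 1.84-fold. Spp1, Trem2, Cd9 and Lgals3 differed by 1.48-fold, 1.48-fold, 1.30-fold and 1.24-fold. On the log2 scale, 2 of the 10 genes were above 1, Mmp12 at 1.49 (interval 1.14 to 1.91) and Gpnmb at 1.12 (0.96 to 1.30), compared to 6.21% of the 15753 genes tested.

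The log2 fold change of WD+7KC over WD was 0.96 for Mpeg1 (interval 0.86 to 1.07), 0.89 for Lyz2 (0.77 to 1.01), 0.88 for Cd68 (0.64 to 1.13) and 0.87 for Itgax (0.41 to 1.46). It was 0.56 for Spp1 (0.47 to 0.66), 0.55 for Trem2 (0.07 to 1.08), 0.38 for Cd9 (0.22 to 0.53) and 0.31 for Lgals3 (0.17 to 0.45). By role, the lysosomal and phagosomal genes lay close together between 0.88 and 0.96, while the secreted genes ran from 0.31 to 1.49 and the surface genes from 0.38 to 1.12. In WD relative to CD the same lysosomal and phagosomal genes were spread from 0.27 (Lyz2) to 1.34 (Cd68). The median of the 10 genes was 0.88, beside 0.002 over all genes. After rescaling to equal sums the median was 1.10, beside 0.21 over all genes, and 6 of the 10 genes were above 1, compared to 1629 of the 15753 genes tested, with Lyz2, Cd68, Itgax and Mpeg1 added. The count above 1 thus depended on the scaling, and the direction of no member did.

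**Figure D2:**
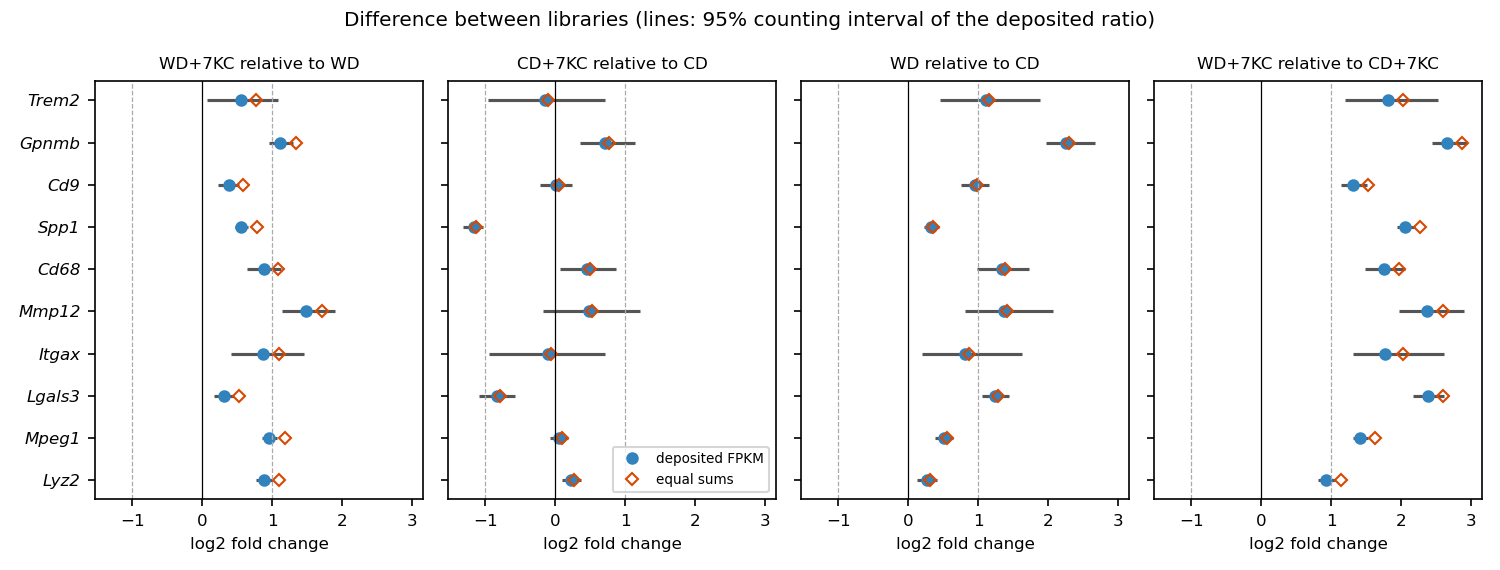
Log2 fold change (x axis) of each of the 10 genes (y axis) in the 4 comparisons between libraries, from FPKM + 0.1 as deposited (filled points) and after rescaling to equal sums (open diamonds), with lines for the 95% counting interval of the deposited ratio and dashed lines at -1 and 1. All points lie above 0 except in CD+7KC relative to CD, where Spp1 is at -1.17 and Gpnmb at 0.72.

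The second comparison asks the same for the regular chow diet, where the 10 genes were divided. Gpnmb, Cd68 and Lyz2 were higher in CD+7KC than in CD beyond counting error, by 1.68-fold, 1.38-fold and 1.17-fold. Spp1 was lower at 43.7 FPKM compared to 98.7 and Lgals3 was lower at 16.1 FPKM compared to 28.6. The intervals of the other 5 genes included 0. On the log2 scale Gpnmb was at 0.72 (interval 0.36 to 1.15), Cd68 at 0.46 (0.07 to 0.87) and Lyz2 at 0.23 (0.09 to 0.37), while Spp1 was at -1.17 (-1.32 to -1.03) and Lgals3 at -0.83 (-1.09 to -0.57).

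Mmp12 was at 0.48 in CD+7KC relative to CD with an interval of -0.17 to 1.21, which at this depth holds both no difference and a difference of more than 2-fold. The intervals of Trem2 (-0.97 to 0.72 around -0.14) and Itgax (-0.95 to 0.71 around -0.10) were wider still. Mpeg1 (0.06, interval -0.07 to 0.19) and Cd9 (0.01, -0.22 to 0.24) were measured more closely and lay near 0. In all, 6 genes were higher and 4 lower, compared to 49.3% of all genes higher, and the median was 0.04. No member was above 1, where 3.84% of the 15684 genes tested were, and 1 member, Spp1, was below -1, where 2.91% were. The comparison of the diets without 7KC below shares the CD library with this one, and the comparison of the diets with 7KC shares CD+7KC.

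Set side by side, the log2 fold change with 7KC was larger under WD than under CD for all 10 genes, compared to 49.2% of the 15029 genes tested under both diets. The gap was widest for Spp1 (0.56 compared to -1.17, a difference of 1.74), Lgals3 (0.31 compared to -0.83, 1.14) and Mmp12 (1.49 compared to 0.48, 1.01). It was narrowest for Cd9 (0.38 compared to 0.01, 0.36), Gpnmb (1.12 compared to 0.72, 0.40) and Cd68 (0.88 compared to 0.46, 0.42). Beyond counting error, Gpnmb, Cd68 and Lyz2 were thus higher with 7KC under both diets, and Spp1 and Lgals3 were higher under WD and lower under CD. By sign alone 4 members, with Trem2 and Itgax added, were higher under WD and lower under CD, compared to 23.7% of the 15029 genes. No share over all genes was computed for genes higher with 7KC under both diets. With 1 library per group the difference between the diets was not tested.

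The third comparison asks how the diets differed without 7KC. All 10 genes were higher in WD than in CD, compared to 50.9% of all genes, and all 10 intervals lay above 0. Gpnmb differed most at 4.97-fold, followed by Mmp12 at 2.65-fold, Cd68 at 2.55-fold, Lgals3 at 2.38-fold and Trem2 at 2.21-fold. These 5 genes were above 1 on the log2 scale, compared to 5.31% of the 15597 genes tested, with Gpnmb at 2.26 (interval 1.97 to 2.67), Mmp12 at 1.37 (0.81 to 2.07), Cd68 at 1.34 (0.99 to 1.73), Lgals3 at 1.25 (1.06 to 1.44) and Trem2 at 1.12 (0.46 to 1.89). Cd9 was at 0.96 (0.76 to 1.16) and Itgax at 0.81 (0.19 to 1.63), and the smallest differences were those of Mpeg1 at 0.51, Spp1 at 0.33 and Lyz2 at 0.27. The median was 1.04.

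The fourth comparison, of the diets when both held 7KC, had the largest absolute log2 fold change of the 4 for each of the 10 genes, compared to 34.6% of the 14788 genes tested in all 4. For the members this follows from the order of the libraries and the larger 7KC difference under WD, both given above, and is no separate result. For Lyz2 the margin was narrow, at 0.93 compared to 0.89 in WD+7KC relative to WD. WD+7KC exceeded CD+7KC for all 10 genes, compared to 50.2% of all genes, with 6.47-fold for Gpnmb, 5.34-fold for Mmp12, 5.25-fold for Lgals3 and 4.19-fold for Spp1. On the log2 scale 9 of the 10 genes were above 1, compared to 8.01% of the 15898 genes tested, and the median was 1.80, or 2.03 after rescaling to equal sums. The exception was Lyz2 at 0.93 (interval 0.82 to 1.05), which was at 1.14 after rescaling. Spp1 was at 2.06 (1.94 to 2.2) here and at 0.33 without 7KC, and Lgals3 at 2.39 (2.17 to 2.62) here and at 1.25 without 7KC, both with their lowest level of the 4 libraries in CD+7KC. Trem2 was at 1.81 (1.20 to 2.54), Itgax at 1.78 (1.31 to 2.62), Cd68 at 1.76 (1.48 to 2.06), Mpeg1 at 1.42 (1.31 to 1.53) and Cd9 at 1.32 (1.14 to 1.51).

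The partners of TREM2 were described from a list of 13 genes for its adaptors, kinases, downstream enzymes and the proteases that shed it. Tyrobp, the adaptor that TREM2 needs for signaling, was at 37.0 FPKM (CD), 49.7 (CD+7KC), 57.7 (WD) and 107 (WD+7KC), far above Trem2 itself on the same length-scaled unit. Of the 13 genes, 12 were higher in WD+7KC than in WD, compared to 50.2% of all genes tested. Of the 13, 4 were above 1, compared to 6.21% of all genes tested, and the median was 0.52. After rescaling to equal sums 6 were above 1, compared to 1629 of the 15753 genes tested, and the median was 0.74. Plcg2, a phospholipase downstream of the receptor, had the largest difference at 1.30 (0.567 FPKM in WD and 1.54 in WD+7KC), and Hcst, the other adaptor, the smallest at -0.35. Under CD, 9 of the 13 were higher with 7KC, with a median of 0.25 and Tyrobp at 0.43. Tyrobp serves many receptors of myeloid and NK cells, so that its level is not a measure of TREM2.

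Other genes known from lipid-associated macrophages were less uniform. Of 22 such genes for lipid handling, lysosomal proteases and matrix, 17 were higher in WD+7KC than in WD (21 after rescaling to equal sums). The median was 0.28 (0.50 after rescaling), and 5 were above 1, compared to 6.21% of all genes tested. The largest difference was that of the collagenase Mmp13 at 1.89 (0.726 and 2.96 FPKM) and the smallest that of the lipoprotein gene Apoe at -0.36. Several genes of this list are also abundant in hepatocytes, among them Apoe at 19502 to 26255 FPKM. Under CD, 8 of the 22 were higher with 7KC and the median was -0.12. Between the diets, 18 of 22 were higher in WD than in CD (median 0.46) and 19 of 22 were higher in WD+7KC than in CD+7KC (median 1.08).

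Of 9 genes for receptors of the secreted members, such as the osteopontin receptors CD44 and the integrins, 7 were higher in WD+7KC than in WD (8 after rescaling), and the median was 0.71. Itgb2, the integrin chain that pairs with the product of Itgax, had the largest difference at 1.17 (5.12 and 11.7 FPKM), and the proteoglycan gene Sdc4 the smallest at -0.38. Under CD, 5 of the 9 were higher with 7KC, and the median was 0.03.

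Markers of the cells that can carry these genes were set beside the members. Of 13 general macrophage markers, none of which was at 0 in any library, 12 were higher in WD+7KC than in WD, and the median was 0.93. Of these markers 5 were above 1, compared to 6.21% of all genes tested. After rescaling to equal sums 9 were above 1, compared to 1629 of the 15753 genes tested, and the median was 1.14. Adgre1, which encodes the macrophage protein F4/80, had the largest difference at 1.55 (5.03 FPKM in WD and 14.9 in WD+7KC), and Ms4a7 the smallest at -0.21. The summed level of these markers was 149 FPKM (CD), 207 (CD+7KC), 255 (WD) and 456 (WD+7KC). Under CD, 10 of the 13 were higher with 7KC (median 0.36). In WD relative to CD 11 of 13 were higher (median 0.76), and in WD+7KC relative to CD+7KC all 13 were (median 1.27).

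Resident Kupffer cell markers and monocyte markers parted under CD. All 9 Kupffer cell markers were higher in WD+7KC than in WD (median 1.05, from 0.24 for Spic to 1.28 for Cd163), and 8 of 9 were higher in CD+7KC than in CD (median 0.95). Their summed level was 115 FPKM (CD), 184 (CD+7KC), 196 (WD) and 369 (WD+7KC). All 9 monocyte markers were higher in WD+7KC than in WD (median 0.67, from 0.01 for Fn1 to 1.83 for Chil3), but all 9 were lower in CD+7KC than in CD (median -0.73). Several rested on low levels, such as Vcan at 0.175 and 0.0219 FPKM and F13a1 at 0.373 and 0.0987 FPKM in CD and CD+7KC. Others were higher, such as Plac8 at 18.2 and 12.0 FPKM, and Ccr2 differed by -0.12 only. Counting intervals were computed for the members and not for these markers. In WD relative to CD, where all 10 members were higher, 6 of the 9 monocyte markers were lower (median -0.10), and in WD+7KC relative to CD+7KC all 9 were higher (median 1.36). Chil3, a chitinase-like protein of monocytes and activated macrophages, was at 1.36 FPKM under CD, 0.136 under CD+7KC, 0.791 under WD and 3.08 under WD+7KC. Summed monocyte markers were at 142, 97.8, 133 and 147 FPKM in the same order, a total dominated by Fn1, which hepatocytes also make.

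**Figure D3:**
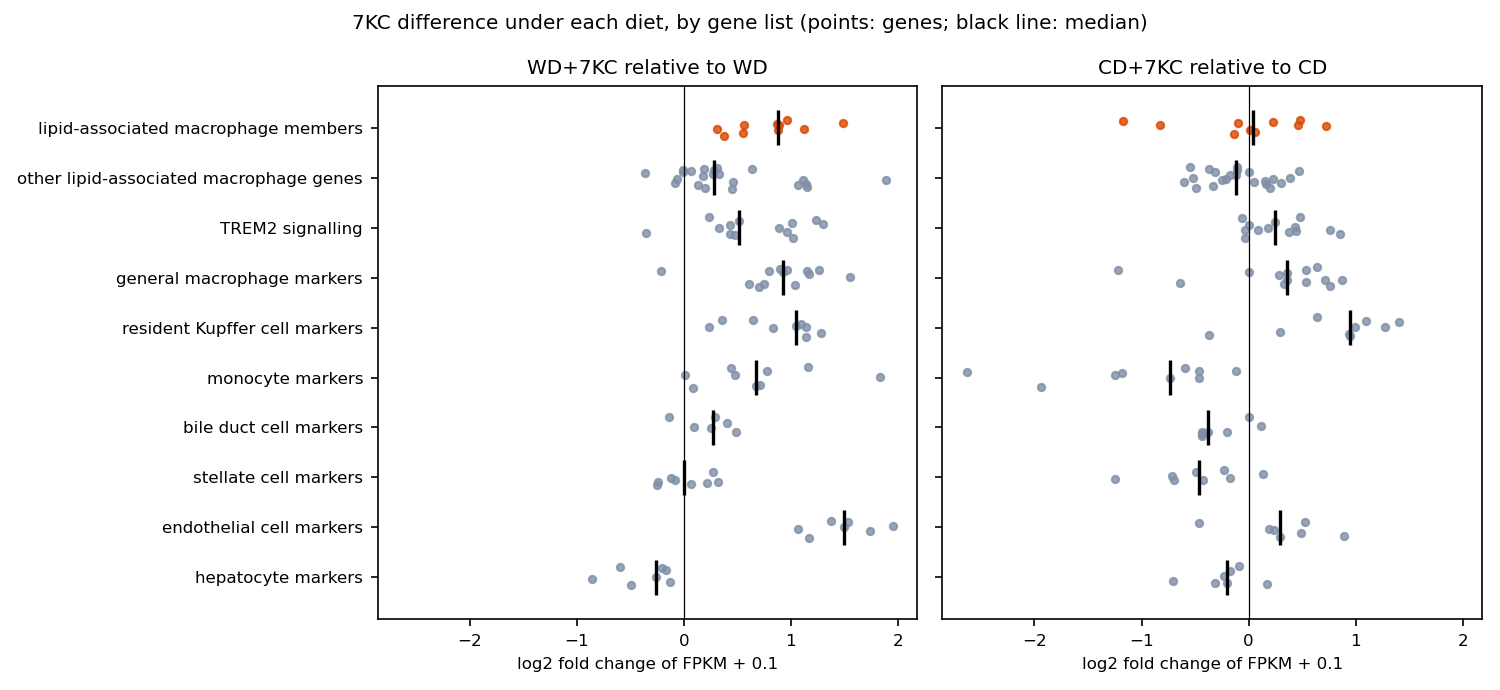
Log2 fold change of FPKM + 0.1 (x axis) in WD+7KC relative to WD (left) and CD+7KC relative to CD (right) for single genes (points) in 10 lists (y axis), with a black line at the median of each list. The 10 members have a median of 0.88 on the left and 0.04 on the right, the Kupffer cell markers 1.05 and 0.95 and the monocyte markers 0.67 and -0.73.

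When each member was set against the mean log2 level of the 13 general macrophage markers, the comparisons with 7KC looked different. The mean of these markers itself differed by 0.89 in WD+7KC relative to WD and 0.27 in CD+7KC relative to CD. It differed by 0.65 in WD relative to CD and 1.27 in WD+7KC relative to CD+7KC. A gene without a difference would thus also be lower against these markers, and the share over all genes was not computed. In WD+7KC relative to WD the members then differed by a median of -0.02, with 3 of 10 higher. The 3 were Mmp12 at 0.60, Gpnmb at 0.23 and Mpeg1 at 0.07, and the lowest was Lgals3 at -0.58. Cd68 (-0.01), Itgax (-0.02) and Lyz2 (-0.0) lay near 0, while Trem2 (-0.34), Spp1 (-0.33) and Cd9 (-0.52) were lower. In CD+7KC relative to CD the median was -0.23, with 3 of 10 higher. Between the diets the median was 0.39 in WD relative to CD (7 of 10 higher, Gpnmb most at 1.61, with Spp1 at -0.32, Mpeg1 at -0.14 and Lyz2 at -0.38) and 0.53 in WD+7KC relative to CD+7KC (9 of 10 higher, all except Lyz2 at -0.34).

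Against the 9 Kupffer cell markers, the members differed by a median of 0.01 in WD+7KC relative to WD (6 of 10 higher). The mean of these markers itself differed by 0.87 in that comparison and 0.8 in CD+7KC relative to CD. It differed by 0.64 in WD relative to CD and 0.7 in WD+7KC relative to CD+7KC. A gene without a difference would thus be lower against these markers in each comparison, and the share over all genes was not computed. In CD+7KC relative to CD all 10 members were lower relative to these markers, by a median of -0.77, from -1.97 for Spp1 to -0.08 for Gpnmb. The median was 0.40 in WD relative to CD and 1.10 in WD+7KC relative to CD+7KC, where all 10 were higher. Gpnmb had the highest value of the members against both marker lists in each comparison of diets. Apart from the pseudocount, a ratio within a library does not depend on the scaling between libraries.

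**Figure D4:**
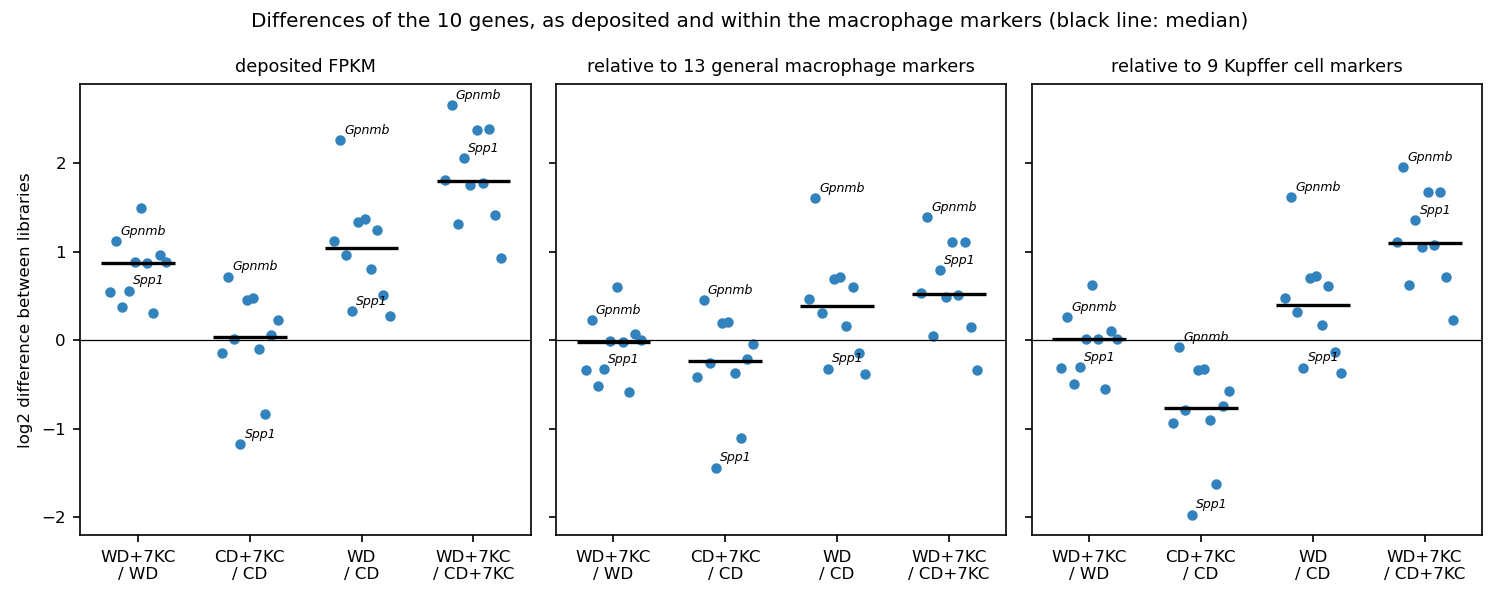
Log2 difference between libraries (y axis) of the 10 genes (points) in the 4 comparisons (x axis), from the deposited FPKM (left), relative to the mean of 13 general macrophage markers (middle) and relative to the mean of 9 Kupffer cell markers (right), with a black line at the median. The median in WD+7KC relative to WD is 0.88 on the left, -0.02 in the middle and 0.01 on the right, while in WD+7KC relative to CD+7KC it is 1.80, 0.53 and 1.10.

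Markers of other cells also differed between the libraries. All 7 endothelial cell markers were above 1 on the log2 scale in WD+7KC relative to WD, compared to 6.21% of all genes tested. The median was 1.5, with values from 1.07 for Pecam1 to 1.95 for Kdr. Their summed level was 59.9 FPKM (CD), 85.8 (CD+7KC), 47.4 (WD) and 133 (WD+7KC). Relative to these markers 9 of the 10 members were lower in WD+7KC than in WD (median -0.60). In CD+7KC relative to CD 7 of 10 were lower (median -0.27). Against the same markers all 10 members were higher in WD than in CD (median 1.42) and in WD+7KC than in CD+7KC (median 1.01). The mean of the markers itself differed by 1.48, 0.31, -0.38 and 0.79 in these comparisons, in the order given. A gene without a difference would thus be lower against the markers where this mean rose and higher where it fell. The share over all genes set against these markers was not computed. All 7 hepatocyte markers were lower in WD+7KC than in WD (median -0.26, from -0.13 for Cps1 to -0.86 for Cyp2e1), but after rescaling to equal sums 3 of them were higher and the median was -0.05. The part of these differences in the levels of the members was not tested.

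Bile duct cells can carry Spp1, Cd9 and Lgals3. Their 7 markers summed to 4.67 FPKM (CD), 3.65 (CD+7KC), 3.22 (WD) and 3.86 (WD+7KC). In WD+7KC relative to WD their median was 0.27 over 6 genes above 0, from -0.14 for Krt7 to 0.49 for Muc1 (0.48 and 6 of 6 higher after rescaling), and in CD+7KC relative to CD it was -0.38, with 6 of 7 lower. In WD relative to CD all 7 were lower (median -0.24), in the comparison where the 10 members were all higher. Stellate cell markers, with the collagen genes Col1a1 and Col3a1 among them, had a median of 0.00 in WD+7KC relative to WD (0.21 after rescaling), from -0.25 for Des to 0.32 for Col3a1. In CD+7KC relative to CD it was -0.46, with 7 of 8 lower, beside the lower Spp1 and Lgals3. The part of these cells in the levels of Spp1 and Lgals3 was not tested.

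Dendritic cell markers, which bear on Itgax, summed to 2.69 FPKM (CD), 2.46 (CD+7KC), 3.5 (WD) and 3.82 (WD+7KC). Their median in WD+7KC relative to WD was 0.11 (5 of 8 higher, or 6 after rescaling, from -0.64 for Ccr7 to 0.94 for Clec9a), beside 0.87 for Itgax. Of the neutrophil markers listed, 4 of 7 were higher, or 5 after rescaling (median 0.08), with S100a8 highest at 1.26 and Ngp lowest, on few reads (0.442 FPKM in WD, 0.0860 in WD+7KC). For dendritic cell and neutrophil markers the rescaled counts lay near the share over all genes, 11502 of 15753. B cell, T and NK cell and platelet markers were low, with summed levels of at most 3.26, 8.86 and 6.55 FPKM in any library. Their medians in WD+7KC relative to WD were 0.31, -0.03 (0.15 after rescaling) and -0.93. T and NK cell markers were higher in WD than in CD for 8 of 9 genes, with a median of 1.70.

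Fat tissue is a known site of lipid-associated macrophages. Of its markers, Plin1 and Lep were listed at 0 in all 4 libraries, and Adipoq was detected under CD only, at 0.0885 FPKM without and 0.0882 with 7KC. Cfd, the adipsin gene, was at 220 and 63.2 FPKM under CD without and with 7KC, and at 1.47 and 0.115 FPKM under WD, with the WD libraries lowest where the members were highest. Retn, the resistin gene, was also highest in CD, at 1.21 FPKM compared to 0.241 in CD+7KC and 0 under WD. Cidec, which fatty hepatocytes also express, was at 115 to 202 FPKM. The CD library, with the highest Cfd and Retn, is the base of the comparisons of CD+7KC and WD with CD. Whether the CD sample held other tissue, and the part of these differences in the levels of the members, was not tested.

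Genes whose order and spread over the 4 libraries were nearest to the median profile of the members were sought among 10676 other genes whose mean level was 1 FPKM or more. The profile was the log2 of FPKM + 0.1 centered on the mean of each gene, and the median over the members was -0.59 (CD), -0.70 (CD+7KC), 0.33 (WD) and 1.04 (WD+7KC). The nearest gene was Crip1 (root mean square distance 0.028), at 19.3, 18.1, 35.7 and 58.6 FPKM, followed by Sla (0.059), Bin2 (0.088), Themis2 (0.088) and Renbp (0.094). Of the members, Itgax (0.062) and Trem2 (0.093) lay closest to their median and Gpnmb (0.657) and Mmp12 (0.443) farthest. With 4 libraries a close profile is a likeness of 4 values only.

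Reads of related genes can be exchanged in counting where transcripts are identical over a read length. Of the 75-base stretches of the annotated transcripts (GENCODE M21, GRCm38), 74 of 1242 in Lyz2 (5.96%) were shared with its neighbor Lyz1, 240 of 4790 in Itgax (5.01%) with Itgad and 162 of 1895 in Spp1 (8.55%) with the overlapping model Gm42793. Lyz1 was at 9.94 FPKM (CD), 9.31 (CD+7KC), 12.6 (WD) and 13.9 (WD+7KC), a difference of 0.14 in WD+7KC relative to WD beside 0.89 for Lyz2. Itgad was at 0 in 3 libraries and at 0.0436 FPKM in WD+7KC. Trem2, Gpnmb, Cd68, Lgals3 and Mpeg1 shared no stretch with another gene, Cd9 shared 6 of 1967 and Mmp12 1 of 7528. The models Gm28809 and Gm26728 overlap Cd9 on the opposite strand, and the strand setting of the counting is not given in the sources used here.

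In the GRCm38 genome the surface protein genes lie at chr17:48346401-48354147 (Trem2), chr6:49036546-49070929 (Gpnmb), chr6:125460266-125494791 (Cd9) and chr7:128129547-128150657 (Itgax). The secreted protein genes lie at chr5:104435118-104441050 (Spp1), chr9:7344381-7369499 (Mmp12) and chr14:47367751-47386160 (Lgals3), and the others at chr11:69664213-69666153 (Cd68), chr19:12460779-12465283 (Mpeg1) and chr10:117277331-117282321 (Lyz2). Gpnmb and Cd9 share a chromosome and the remaining members do not.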

How the data were processed

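RNA sequencing of liver was analysed in 4 libraries, 1 per group. Stranded mRNA libraries were aligned to mm10 with TopHat2 2.0.13, Bowtie2 2.2.3 and SAMtools 0.1.19, and the authors deposited FPKM values per gene symbol from Cufflinks 2.2.1 (versions per the submitters' processing notes). The gene annotation and the Cufflinks options are not given in the sources used here.

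The members and gene lists were chosen with earlier results of these data known. Each log2 fold change was the log2 ratio of deposited FPKM + 0.1 (the pseudocount), and genes at 0 FPKM in both libraries of a comparison were left out. Calls were values above 1 or below -1. Depth was estimated from FPKM steps of 13861 genes with transcript length minus 200 bases, and 70.4% to 71.2% of low values lay within 0.1 of whole reads. No p-value was computed, and each statement of a difference beyond counting error rests on intervals from these estimated reads. Read numbers used the shortest RefSeq mRNA of a gene, which gives the widest interval. Intervals were exact (Clopper-Pearson for ratios, Poisson for levels, 95%), carry no pseudocount and cover counting error only.

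The text names all members, the genes with the largest and smallest change in WD+7KC relative to WD of each list (not for the B cell, T and NK cell and platelet lists, whose extremes rested on few reads), Tyrobp, the 5 nearest profiles and genes sharing 75-base stretches with members. The fat tissue values, the T and NK cell values under WD and other named genes were added after the values were seen. Alternatives were pseudocounts of 1 and 0.01, no pseudocount, a filter of 1 FPKM, 4 scalings and thresholds of 1.5-fold and 4-fold. The scalings of the order of the libraries were chosen after seeing the data. The depth estimate, the direction of log2 fold changes and the counting intervals were tested on simulated reads. These were drawn with the same length term and counting error that the code assumes. The other steps were not tested on simulated data. Python 3.11.15, numpy 2.4.6, pandas 2.3.3, scipy 1.17.1 and matplotlib 3.10.9 were used. Promoters came from RefSeq (GRCm38.p6) and gene positions from GENCODE M21.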

Additional observations from a re-analysis of the deposited data

Results flagged for a closer look

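Of the 10 members, 4 were higher with 7KC under WD and lower with 7KC under CD, compared to 23.7% of the 15029 genes tested under both diets. The log2 fold change of WD+7KC over WD exceeded that of CD+7KC over CD by 1.74 for Spp1 (0.56 compared to -1.17), by 1.14 for Lgals3 (0.31 compared to -0.83), by 0.97 for Itgax (0.87 compared to -0.10) and by 0.69 for Trem2 (0.55 compared to -0.14). For Spp1 and Lgals3 the counting intervals lay on opposite sides of 0 under the 2 diets. For Itgax and Trem2 the interval under CD included 0. With 1 library per group the difference between the diets was not tested.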

How the results depend on the processing

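No paired analysis was possible because each group had 1 library, and for the same reason no replicate could be left out. Of the 40 member and comparison pairs, 0 had another sign under any of the alternatives. The 10 members kept WD+7KC highest and WD next under each scaling. In WD+7KC relative to WD, the 2 members above 1 became 6 after rescaling to equal sums, 6 after rescaling to equal sums without the 20 highest genes, 6 at a threshold of 1.5-fold and 0 at a threshold of 4-fold, and the median of 0.88 became 1.10 and 1.05 under those rescalings, which raise every gene of WD+7KC alike. In CD+7KC relative to CD, 0 members above 1 became 1 and 1 below -1 became 2 at a threshold of 1.5-fold, and 0 were below the threshold of 4-fold. At a threshold of 4-fold, the 5 members above 1 in WD relative to CD became 1 and the 9 in WD+7KC relative to CD+7KC became 4. Of 319 alternative values of single members, 297 lay inside the counting interval. Counts over all genes also depended on the pseudocount: with 1 and 0.01 in place of 0.1, genes above 1 numbered 140 and 1907 in place of 978 in WD+7KC relative to WD, 65 and 1375 in place of 603 in CD+7KC relative to CD, 150 and 1575 in place of 828 in WD relative to CD, and 316 and 2187 in place of 1274 in WD+7KC relative to CD+7KC. Genes below -1 in CD+7KC relative to CD numbered 48 and 1005 in place of 456. Depth limits Trem2 and Itgax most, with 25 to 110 reads per library.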
